A study of Mus musculus with 2 samples.

Results

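Medullary thymic epithelial cells (mTECs) that expressed glandular kallikreins were described in single-cell RNA-seq of mouse thymus. A cell counted as a kallikrein cell when it held at least 3 unique molecular identifiers (UMIs, 1 per captured mRNA molecule) of Klk1, Klk1b26, Klk1b16, Klk1b11 and Klk1b9 together, and at least 3 per 10000 of its UMIs. It also had to hold 0 Ptprc UMIs, fewer than 2 UMIs of Gpx6 and 4922502D21Rik together, and fewer than 10 per 10000 of the tuft cell genes Trpm5, Dclk1 and Alox5ap. These limits found 715 kallikrein cells among 13307 cells that passed the quality filter. EPCAM+Ly51- cells were sorted from thymus and made into 1 droplet library (10x Genomics 3' kit) for each of 2 genotypes, so that no difference between genotypes has a replicate check. The libraries are labelled Foxn1-Cre(+) Ikarosfl/fl, here fl/fl, and Foxn1-Cre(+) Ikaros+/fl, here +/fl; both carry the Cre, which the Foxn1 promoter drives in thymic epithelium, and differ in the floxed alleles of Ikaros (gene Ikzf1), a zinc-finger transcription factor best known from lymphocytes. The names of the deposited files call the fl/fl library the control and the +/fl library the knockout, which goes against these genotype labels and could not be settled here, so every direction between the libraries is given for the libraries as labelled. The sources used here do not state the age, sex or number of the animals.

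Tissue kallikreins are secreted trypsin-like or chymotrypsin-like serine proteases. Klk1 releases kinin peptides from kininogens, and the mouse carries a cluster of close Klk1b paralogs that are products of the submandibular gland and other glands. mTECs transcribe many such tissue-restricted genes in small subsets of cells, in part under the regulator Aire, and display them to developing T cells. Some mTECs past the Aire stage take on programs of peripheral cell types, among them tuft, microfold, keratinocyte and neuroendocrine programs.

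All 14 genes of the Klk1 family lie on the plus strand of chromosome 7 (GRCm38, positions by Ensembl identifier from GENCODE M21), between the start of Klk1b8 at 43950664 and the end of Klk1 at 44229618. Upstream of them on the same chromosome lie the 12 other kallikrein-related peptidase genes, Klk14 to Klk15, from 43690418 to 43939639. The 100 bases before the RefSeq start of the 5 genes that defined the cells are shown because the report turns on how these paralogs divide among cells; they are RefSeq sequences of the build GRCm38.p6, 5' to 3' on the plus strand, and capitals mark the motif TTTAAA.
Klk1: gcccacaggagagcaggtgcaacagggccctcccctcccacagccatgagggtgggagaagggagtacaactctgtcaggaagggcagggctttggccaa
Klk1b26: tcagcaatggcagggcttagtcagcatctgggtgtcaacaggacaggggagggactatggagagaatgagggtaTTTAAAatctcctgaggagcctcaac
Klk1b16: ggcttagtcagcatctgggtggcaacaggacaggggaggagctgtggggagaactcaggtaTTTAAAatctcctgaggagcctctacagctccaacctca
Klk1b11: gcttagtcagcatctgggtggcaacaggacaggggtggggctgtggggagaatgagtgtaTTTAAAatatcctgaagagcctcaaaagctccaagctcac
Klk1b9: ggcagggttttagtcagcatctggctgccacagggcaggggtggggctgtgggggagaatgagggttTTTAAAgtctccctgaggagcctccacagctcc
The windows are chr7:44225260-44225359 for Klk1, chr7:44012578-44012677 for Klk1b26, chr7:44137190-44137289 for Klk1b16, chr7:43995777-43995876 for Klk1b11 and chr7:43975961-43976060 for Klk1b9. TTTAAA, which reads the same on both strands, stands in 12 of the 14 windows of the family, against 4.39% of 32851 RefSeq promoter windows of that length. The windows of Klk1 and Klk1b21 hold no match, but they do not cover the same stretch as the others. The Klk1b21 window ends on letters that stand just before the motif in the Klk1b24 window. The Klk1 window ends on letters like those near the start of the Klk1b1 window, well before the motif there. Whether the motif stands past the ends of the Klk1 and Klk1b21 windows was not tested. TATAAA, searched on both strands, stands in none of the 14 windows, against 5.56% of the 32851 RefSeq promoter windows. A match is a description of the letters and not a measured site. The RefSeq starts of Klk1b26 and Klk1b16 lie inside the longer GENCODE genes, so these windows follow RefSeq.

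The fl/fl library held 11095 barcodes, of which 8208 passed a filter that asked for 500 or more genes, 1000 or more UMIs and a mitochondrial share of 15% or less. The +/fl library held 7304 barcodes, of which 5099 passed. The median cell had 8542.5 UMIs in the fl/fl library and 11057 in the +/fl library, and the kallikrein cells had medians of 12235.5 UMIs and 3584 genes in fl/fl, and of 10973 UMIs and 3266 genes in +/fl. Kallikrein cells summed to 9554497 UMIs in fl/fl and to 156299 in +/fl, so 1 UMI is worth 6.40 counts per 1000000 UMIs (CPM) in the +/fl kallikrein cells. Among all barcodes 25 were shared by the 2 libraries, and 1 kallikrein cell of the fl/fl library and none of the +/fl library carried such a barcode. Xist stood at 1.05 CPM in fl/fl kallikrein cells and at 1529 CPM in +/fl kallikrein cells, so the libraries came from animals of different sex, and sex cannot be told apart from genotype. Ikzf1, the targeted gene, had 292 UMIs in fl/fl kallikrein cells (30.6 CPM, in 181 of 698 cells) and 2 UMIs in +/fl kallikrein cells (12.8 CPM, in 2 of 17 cells). Over all cells Ikzf1 had 37.5 CPM in fl/fl and 64.0 CPM in +/fl. Which exons were floxed is not stated in the labels, so 3' tags cannot check the genotypes.

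Kallikrein cells were frequent in the library labelled fl/fl and rare in the one labelled +/fl. They made up 698 of 8208 cells in fl/fl, or 8.50% (exact binomial 95% interval 7.91 to 9.13%), and 17 of 5099 cells in +/fl, or 0.333% (0.194 to 0.533%). These intervals, like all that follow, cover counting error only. The share was 25.5 times as high in fl/fl, as a description of 2 libraries. The limits on other genes removed unequal parts. Past the kallikrein thresholds alone were 822 cells in fl/fl (10.0%) and 48 in +/fl (0.941%), a ratio of 10.6 that was computed after the data were seen. The limits then removed 124 of the 822 cells (15.1%) in fl/fl and 31 of the 48 (64.6%) in +/fl. Over all cells the same limits removed 1586 of 8208 (19.3%) in fl/fl and 3018 of 5099 (59.2%) in +/fl. Among cells inside the limits, kallikrein cells were 10.5% in fl/fl and 0.817% in +/fl, a ratio of 12.9. Gpx6 with 4922502D21Rik removed 62 of the 822 and 26 of the 48. Among cells with an Aire UMI or a kallikrein call, kallikrein cells were 17.5% in fl/fl and 2.30% in +/fl, a ratio of 7.61. After thinning every cell to 5000 UMIs, which left out 2531 fl/fl cells and 1141 +/fl cells, the share was 8.63% in fl/fl (490 of 5677) and 0.303% in +/fl (12 of 3958).

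Free RNA in the droplets bears on these shares, since any kallikrein UMI was seen in 24.99% of fl/fl cells and 3.39% of +/fl cells. Cells with at least 2 Ptprc UMIs and 0 Epcam UMIs, which should be haematopoietic and lack kallikreins, held any kallikrein UMI in 12 of 103 fl/fl cells (11.7%, median 4440 UMIs per cell) and in 1 of 87 +/fl cells (1.15%, median 7397). Both kallikrein thresholds were passed by 2 of the 103 in fl/fl (1.94%, 0.236 to 6.84%) and by 0 of the 87 in +/fl, which allows up to 4.15% by the exact interval. Cells with 0 Ptprc UMIs passed the thresholds in 10.3% of cases in fl/fl (median 8481 UMIs) and in 1.05% in +/fl (median 10851). At 30 or more kallikrein UMIs per 10000, 2.67% of the fl/fl and 0.264% of the +/fl cells with 0 Ptprc UMIs remained, against 0 of the 103 and 0 of the 87 haematopoietic cells. The exact intervals of these zeros reach 3.52% in fl/fl and 4.15% in +/fl, above the shares beside them, so the zeros cannot set the 2 kinds of cells apart. A level of 100 per 10000 was reached by 0.744% of these cells in fl/fl and by 0.0479% in +/fl. Cells of 2 or more Ptprc UMIs regardless of Epcam passed both thresholds in 23 of 342 cases in fl/fl (6.73%) and in 1 of 481 in +/fl (0.208%). The part of free RNA and of mixed droplets in the lowest kallikrein cells was not tested.

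**Figure D1:**
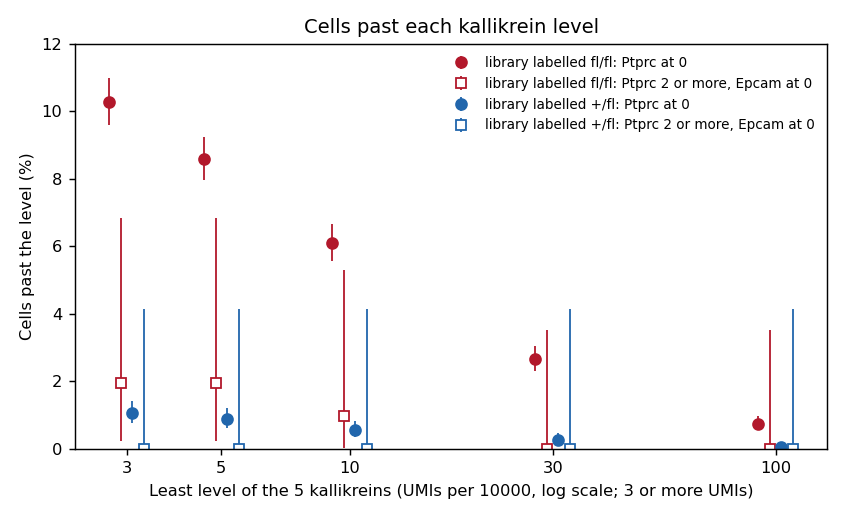
Share of cells (%) at or above a given kallikrein level (summed UMIs of 5 kallikreins per 10000, log axis) in the fl/fl and +/fl libraries, for cells with 0 Ptprc UMIs (filled circles) and cells with at least 2 Ptprc and 0 Epcam UMIs (open squares); points are set apart sideways for reading, and bars are exact 95% intervals. At 30 per 10000 the cells with 0 Ptprc UMIs stand at 2.67% in fl/fl and 0.264% in +/fl, and no cell of the haematopoietic sets is left.

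The kallikrein level of a cell varied widely and had no gap at the threshold. It ran from 3.01 per 10000 through a median of 13.4 to 755 in the 698 fl/fl cells, and from 3.38 through a median of 22.7 to 172 in the 17 +/fl cells. The median cell held 14 kallikrein UMIs in either library, and the highest held 1226 in fl/fl and 205 in +/fl. Just inside the threshold, at 3 to 4 per 10000, lay 53 fl/fl cells (median 14075 UMIs, 83.0% with Aire) and 2 +/fl cells. Just outside, at 2 to 3 per 10000 with all other limits met, lay 61 fl/fl cells (median 18636 UMIs, 85.2% with Aire) and 2 +/fl cells. A few cells carried most of the transcript. The top 10% of fl/fl cells held 61.8% of the kallikrein UMIs, and 1 of the 17 +/fl cells held 35.0%. Summed over cells, the 5 kallikreins had 3391 CPM in fl/fl kallikrein cells (95% Poisson interval 3355 to 3429, 32404 UMIs) and 3743 CPM in +/fl kallikrein cells (3446 to 4059, 585 UMIs). Over whole libraries they had 450 CPM in fl/fl and 29.4 CPM in +/fl. Of each library's kallikrein UMIs, 78.8% lay in kallikrein cells in fl/fl and 27.3% in +/fl.

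The 5 paralogs made up different shares in the 2 libraries. These genes chose the cells, so their levels are a description. Klk1, the kinin-releasing tissue kallikrein, had 1064 CPM in fl/fl kallikrein cells (411 of 698 cells) and 3237 CPM in +/fl kallikrein cells (13 of 17 cells). Klk1b26, a salivary enzyme known to process prorenin, had 864 CPM in fl/fl (386 cells) and 57.6 CPM in +/fl (3 cells). Of the 506 Klk1 UMIs in +/fl, 205 came from 1 cell. Klk1b16, known as gamma-renin, had 742 CPM in fl/fl (272 cells) and 339 CPM in +/fl (5 cells). Klk1b9, known as an epidermal growth factor-binding protein, had 377 CPM in fl/fl (363 cells) and 70.4 CPM in +/fl (3 cells), and Klk1b11 had 345 CPM in fl/fl (348 cells) and 38.4 CPM in +/fl (3 cells). Klk1b26, Klk1b16, Klk1b9 and Klk1b11 stood lower in the +/fl cells, each in 3 to 5 of the 17. Klk1 made up 31.4% of the 5 paralogs' UMIs in fl/fl and 86.5% in +/fl, and without the +/fl cell of most kallikrein UMIs 79.2% in +/fl. The size of this share in +/fl depended on the limits on other genes. In the cells that the limits removed, Klk1 made up 25.1% of 6576 UMIs in fl/fl (124 cells) and 41.5% of 1332 UMIs in +/fl (31 cells), and over all cells past the kallikrein thresholds 30.3% in fl/fl and 55.2% in +/fl. Klk1b9 made up 22.4% and Klk1b16 19.4% in the 31 removed +/fl cells, against 1.88% and 9.06% in the 17 kept. In cells with 1 or 2 kallikrein UMIs Klk1 made up 31.4% in fl/fl (1052 cells) and 67.5% in +/fl (102 cells).

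**Figure D2:**
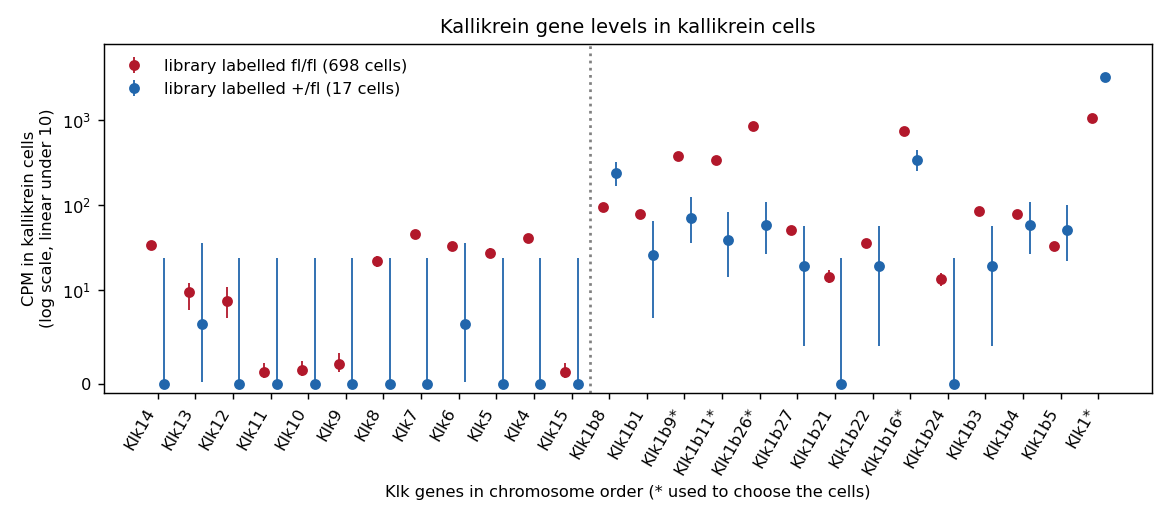
Level (CPM, log axis that is linear under 10) of the 26 Klk genes in chromosome order in kallikrein cells of the fl/fl library (698 cells) and the +/fl library (17 cells), with exact 95% Poisson intervals; asterisks mark the 5 genes that chose the cells. Klk1 stands at 1064 CPM in fl/fl and 3237 CPM in +/fl, and Klk1b26 at 864 CPM in fl/fl and 57.6 CPM in +/fl.

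Single cells leaned to 1 or a few paralogs. In fl/fl, 175 cells had UMIs of 1 of the 5 paralogs, 195 of 2, 165 of 3, 95 of 4 and 68 of all 5. In +/fl, 9 cells had 1, 6 had 2 and 2 had 3. A single paralog made up more than 90% of the UMIs in 241 fl/fl cells (34.5%) and 11 +/fl cells. By the paralog that gave more than 50% of a cell's kallikrein UMIs, 240 fl/fl cells were led by Klk1, 110 by Klk1b26, 86 by Klk1b16, 88 by Klk1b9 and 49 by Klk1b11, and 125 had no leader. In +/fl, 13 of the 17 cells were led by Klk1, 2 by Klk1b9, 1 by Klk1b11 and 1 had no leader. With a median of 14 kallikrein UMIs per cell, a paralog listed at 0 in a cell was not detectable at this depth rather than absent. Cells entered on the sum of the 5 paralogs, so a cell low in one had to be high in another, and negative correlations among the 5 are built in and are not given. Across the 698 fl/fl cells, which share a library and whose values are not independent, Klk1b26 ran with Klk1b11 (Spearman rho 0.45), Klk1b9 with Klk1b1 (0.46) and Klk1b4 with Klk1b5 (0.49). Klk1b26, Klk1b11 and Klk1b9 are genes of the rule, so the choice of cells bears on the first 2 values, which are a description.

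**Figure D3:**
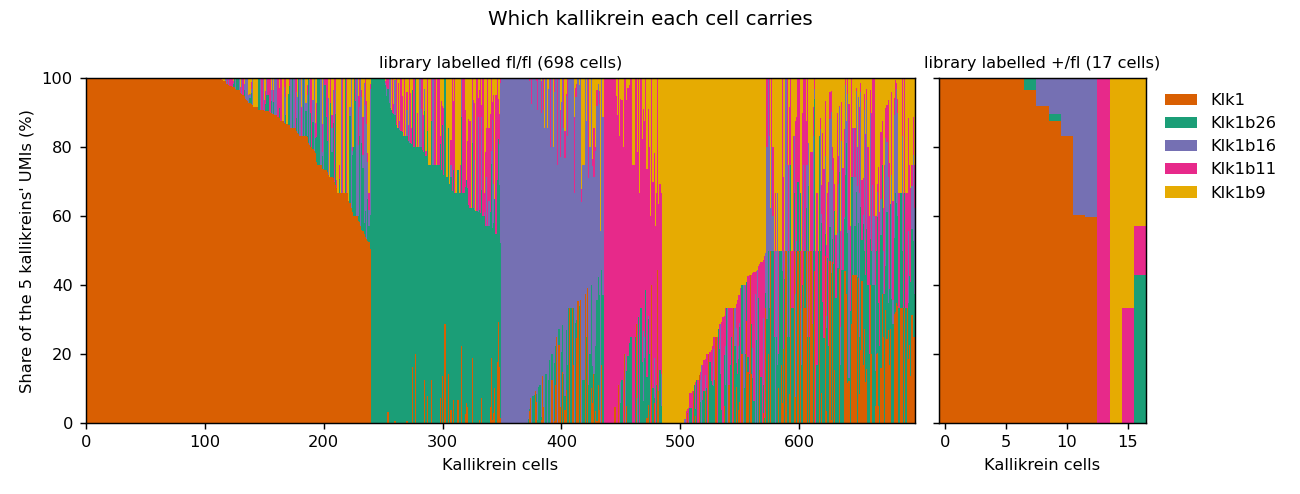
Kallikrein cells, 1 column per cell, with the share (%) of the cell's UMIs of the 5 kallikreins that each paralog gave, sorted by leading paralog, for the fl/fl library (698 cells) and the +/fl library (17 cells). Klk1 leads 240 of the 698 and 13 of the 17 cells.

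The 17 cells of the +/fl library can be listed in full by their leaders. The 13 led by Klk1 held between 3 and 205 UMIs of Klk1, and 5 of them also held Klk1b16. The cell with 205 Klk1 UMIs had no UMI of the other 4. Of the 4 other cells, 1 held 14 kallikrein UMIs (6 Klk1b26, 6 Klk1b9 and 2 Klk1b11) among only 1944 UMIs, and 3 held exactly 3 kallikrein UMIs, so these 3 sat at the UMI threshold. Without the cells under 5 UMIs or 5 per 10000, 534 kallikrein cells were left in fl/fl and 10 in +/fl.

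The label markers that are no kallikreins were found unequally in the 2 libraries. Resp18, a secretory granule protein of neuroendocrine cells, had 667 CPM in fl/fl kallikrein cells (453 of 698 cells) and 397 CPM in +/fl kallikrein cells (8 of 17). In comparison cells Resp18 had 182 CPM in fl/fl and 23.9 CPM in +/fl. Fabp9, a fatty-acid-binding protein of testis, had 392 CPM in fl/fl kallikrein cells (227 cells) and 0 UMIs in the 17 +/fl cells, beside 139 and 10.3 CPM in the comparison cells of fl/fl and +/fl. Ripply2, a somite transcription regulator, had 64.5 CPM in fl/fl kallikrein cells and 1 UMI in +/fl kallikrein cells, beside 38.6 and 2.12 CPM in the comparison cells. Resp18 was thus present with the kallikreins in both libraries, whereas Fabp9 was not detected in the 17 +/fl kallikrein cells, which allows up to 19.5% of cells with a UMI by the exact interval. The cells were epithelial: Epcam was found in 666 of 698 fl/fl and 17 of 17 +/fl kallikrein cells, at 1216 and 1401 CPM, and Cd74, the invariant chain of MHC class II, in all 698 and all 17.

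Kallikrein cells were then set against comparison cells, which passed the same filter and limits, held at least 1 Aire UMI and held none of the 5 kallikreins: 2613 in fl/fl (median 10180 UMIs) and 708 in +/fl (median 12544). UMIs were summed per library and population and tested with edgeR's quasi-likelihood test with library as a block and Benjamini-Hochberg adjustment over 15965 genes. In all, 201 genes rose in kallikrein cells (1.26% of those tested) and 120 fell (0.752%); the 201 hold the 5 kallikreins of the rule, whose calls the choice of cells fixed, 8 other members of their family and 188 genes outside it. At an unadjusted p under 0.05, 725 were higher and 863 lower. The test rests on 4 sums and 1 residual degree of freedom, with a spread that is shared over all genes, and without the library block edgeR called 0 genes either way (273 higher and 393 lower at an unadjusted p under 0.05). DESeq2 called 52 of the 201 and 6 of the 120, and no others. Of the 201, 189 were also higher in the +/fl library, but 63 drew more than 50% of their +/fl UMIs from 1 cell. The folds of the joint fit were carried in large part by the +/fl library with its 17 kallikrein cells. The median log2 ratio of the 201 was 1.51 in fl/fl alone and 3.44 in +/fl alone, and that of the 120 was -1.45 and -3.37. In fl/fl alone, 164 of the 201 and 107 of the 120 differed at least 2-fold.

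The rest of the Klk1 family rose with the 5 that defined the cells. Of the 9 members outside the rule 8 were tested, Klk1b24 being too low, and 8 of 8 rose, with a median log2 fold change of 5.41 against -0.07 over all genes. They passed the filter on low counts through the kallikrein cells, so this count and the fold changes below are a description. Klk1b1 had 77.8 CPM in kallikrein against 1.13 in comparison cells of fl/fl, and 25.6 against 0.0963 CPM in +/fl (log2 fold change 6.26, SE 0.67). Its value in +/fl kallikrein cells rests on 4 UMIs in 2 cells. Klk1b3, the gamma subunit of the nerve growth factor complex, had 84.9 against 1.51 CPM in fl/fl and 19.2 against 0 CPM in +/fl. Klk1b4, its alpha subunit, had 78.8 against 2.93 CPM in fl/fl and 57.6 against 0.289 CPM in +/fl. Both subunits stood far above the comparison cells in either library, on 3 and 9 UMIs in +/fl. Klk1b8 had 95.9 against 5.99 CPM in fl/fl and 237 against 0.193 CPM in +/fl (5.69, SE 0.55), with 18 of its 37 +/fl UMIs in 1 cell. Klk1b5, Klk1b27 and Klk1b22, under 50 CPM in the mean of the 2 libraries, rose with log2 fold changes of 5.52, 5.30 and 4.32. Klk1b21 rose in the joint fit (3.28), with 0 UMIs in both +/fl populations, so its call rests on the fl/fl library and DESeq2 did not make it. At least 1 of these 9 members was seen in 483 of 698 fl/fl and 11 of 17 +/fl kallikrein cells.

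Close paralogs can trade reads, which bears on this family. Over windows of 91 bases in the last 400 bases of the transcripts, Klk1 shared 47 of 514 windows exactly with Klk1b5 (9.14%), and Klk1b21 and Klk1b24 shared 8 of 310 (2.58%). The other 11 members shared none with another kallikrein gene. Of the more distant kallikrein-related peptidases, Klk4 to Klk15, which include skin and salivary enzymes, edgeR called 0 of 10 tested (2 higher and 1 lower at an unadjusted p under 0.05), and DESeq2 called 0. Their median log2 fold change was 0.55, and 10 of the 12 had 0 UMIs in +/fl kallikrein cells, so missing the threshold does not show equal levels. In fl/fl all but Klk9 and Klk10 stood higher in kallikrein cells, among them Klk5 (27.2 against 8.70 CPM) and Klk7 (45.6 against 20.2 CPM). Their 12 genes summed to 226 CPM in kallikrein and 129 CPM in comparison cells of fl/fl, and to 12.8 and 18.0 CPM in +/fl. Of the kinin and renin system partners, among them the kininogen gene Kng1 and the kinin receptor genes Bdkrb1 and Bdkrb2, edgeR called 0 of 7 (0 at an unadjusted p under 0.05) and DESeq2 called 0. Of other salivary gland products, 0 of 12 were called by edgeR (3 higher and 1 lower at an unadjusted p under 0.05) and 0 by DESeq2.

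Outside the family, among called genes that averaged 50 CPM or more over the 2 libraries in either population, Car8, Cd177, Speer4c and Snap25 had the highest log2 fold changes, and Cpn1, Stxbp5l, Rap1gap2 and Scg2 came next. Car8, a carbonic anhydrase-related protein that binds the inositol trisphosphate receptor, had 308 against 31.4 CPM in kallikrein and comparison cells of fl/fl, and 1734 against 9.05 CPM in +/fl (log2 fold change 5.17, SE 0.54, edgeR adjusted p = 1.62e-18). It was found in 207 of 698 fl/fl and 8 of 17 +/fl kallikrein cells. Cd177, a glycoprotein of neutrophils, had 73.4 against 12.4 CPM in fl/fl and 448 against 0.770 CPM in +/fl (5.02, SE 0.57, edgeR adjusted p = 2.32e-15), with 43 of its 70 +/fl UMIs in 1 of 3 cells. Both genes were higher in kallikrein cells of each library, and further apart in +/fl. Speer4c, of a spermatogenesis-associated family, rose by 4.28 (125 against 15.5 CPM in fl/fl, 454 against 6.36 in +/fl). Snap25, a membrane fusion protein of synapses and endocrine granules, had 35.0 against 4.41 CPM in fl/fl and 102 against 2.41 CPM in +/fl (3.75, SE 0.51, edgeR adjusted p = 2.01e-10). Cpn1, a subunit of carboxypeptidase N that trims kinins, had 15.9 against 2.58 CPM in fl/fl and 89.6 against 1.73 CPM in +/fl, a joint log2 fold change of 3.60 where fl/fl alone gave 2.24. Stxbp5l, a relative of tomosyn that binds such fusion proteins, had 87.0 against 12.3 CPM in fl/fl and 186 against 5.87 CPM in +/fl (3.57 jointly, 2.72 in fl/fl alone). Rap1gap2, which regulates granule secretion in platelets, had 35.1 against 8.73 CPM in fl/fl and 141 against 1.54 CPM in +/fl (3.57 jointly, 1.89 in fl/fl alone), with 11 of its 22 +/fl UMIs in 1 cell. In each of these genes the ratio was larger in +/fl than in fl/fl. These calls were also made by DESeq2 and with kallikrein cells limited to those with Aire (470 in fl/fl, 4 in +/fl; added after the data were seen). Scg2, a granin, rose by 3.52 (2.35 in fl/fl alone), but 15 of its 17 +/fl UMIs came from 1 cell and the call was lost with kallikrein cells limited to those with Aire.

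**Figure D4:**
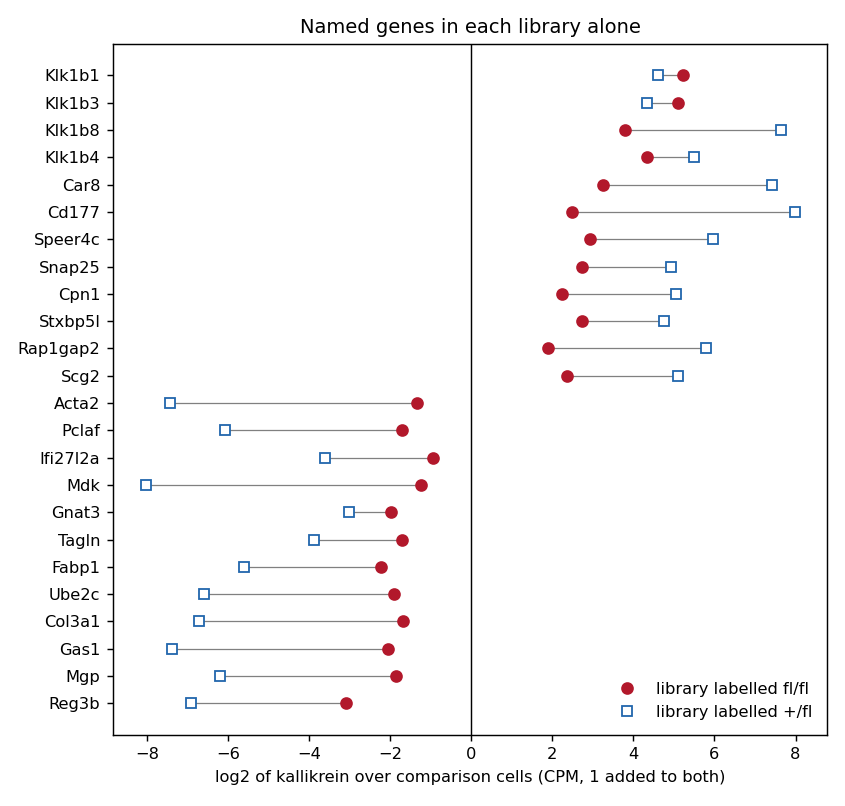
Log2 ratio of kallikrein over comparison cells (CPM, 1 added to both) in each library alone, fl/fl (filled circles) and +/fl (open squares), for the 12 genes with the highest and the 12 with the lowest log2 fold change past the edgeR threshold among genes outside the rule that averaged 50 CPM or more over the 2 libraries in either population. The genes lie on the same side of 0 in both libraries, by the rule that named them; Car8 stood at 308 against 31.4 CPM in fl/fl and 1734 against 9.05 CPM in +/fl.

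The endocrine secretory granule list, chosen with earlier results of these data known, rose in 7 of 11 tested members and fell in none, with a median log2 fold change of 2.21. Over all tested genes 1.26% rose and 0.752% fell, with a median of -0.07. Chga, a granin that packs hormone granules, had 147 against 55.0 CPM in fl/fl and 288 against 18.1 CPM in +/fl (2.41, SE 0.46, edgeR adjusted p = 6.39e-05). Chgb, Scg3, the prohormone convertase Pcsk1 and the granule membrane phosphatases Ptprn and Ptprn2 rose by 2.06 to 2.67 on the log2 scale, against 1.18 to 1.84 in fl/fl alone. DESeq2 called only Chga and Scg2 of this list. Of 7 neuroendocrine markers, Chga, Chgb, Snap25 and the endoderm factor Foxa2 rose. Insm1 (211 against 170 CPM in fl/fl, 281 against 87.7 in +/fl) and Scg5 did not pass, and Neurod1 stood at 2.72 against 3.45 CPM in fl/fl and at 0 UMIs in +/fl kallikrein cells. The 7 markers summed to 663 against 375 CPM in fl/fl and to 1318 against 250 CPM in +/fl. Of 18 tested peptide hormone and milk genes 1 rose, the hypothalamic hormone Oxt (147 against 67.1 CPM in fl/fl, 333 against 11.2 in +/fl), whose +/fl UMIs all came from 1 cell, and 0 fell. Csn2, a milk casein, had 921 against 938 CPM in fl/fl and 301 against 206 CPM in +/fl.

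Over 6 lists of mTEC and MHC class II pathway genes, Ctsl of the MHC class II list was called lower in kallikrein cells. The other tested members missed the threshold. Aire, which defines the comparison cells and is therefore only described, had 306 against 459 CPM in fl/fl and 89.6 against 167 CPM in +/fl, with at least 1 UMI in 470 of 698 and 4 of 17 kallikrein cells. Fezf2, another regulator of tissue-restricted genes, had 415 against 430 CPM in fl/fl and 147 against 255 CPM in +/fl. EdgeR called 0 of 7 Aire stage genes (2 lower at an unadjusted p under 0.05), 0 of 7 medullary epithelium genes (1 higher), 0 of 20 mTEC regulators (1 higher, 3 lower), 0 of 7 costimulation genes (1 lower) and 0 of 12 NF-kB and TNF receptor genes (2 lower); DESeq2 called 0 in each. Of 11 MHC class II pathway genes 1 fell, Ctsl, the gene of cathepsin L (234 against 501 CPM in fl/fl, 102 against 876 in +/fl), and this call was lost with DESeq2. H2-Aa, an MHC class II chain, had 5377 against 4958 CPM in fl/fl and 1951 against 2191 CPM in +/fl. A p that missed the threshold does not show equal levels.

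Genes that fell included markers of immature mTECs and of cycling cells. Over all tested genes 0.752% fell. Of 7 immature mTEC markers 4 fell: Ccl21a, a chemokine that draws thymocytes into the medulla (882 against 2250 CPM in fl/fl, 1401 against 6387 in +/fl; log2 fold change -1.95, SE 0.43, edgeR adjusted p = 0.00110), the basal keratins Krt5 and Krt14, and Pdpn. Of these DESeq2 called Ccl21a alone. Of 5 cycling genes Mki67, Top2a, Cdk1 and Birc5 fell by 1.73 to 2.34 on the log2 scale, with 0 or 1 UMI each in +/fl kallikrein cells, and DESeq2 called none. In fl/fl alone the gap was smaller, from 23.1 against 48.0 CPM for Top2a, a DNA topoisomerase, to 4.71 against 21.8 CPM for Birc5, an inhibitor of apoptosis that acts in mitosis. Reg3b, a gut antimicrobial lectin, had 23.1 against 203 CPM in fl/fl and 0 against 120 CPM in +/fl (-3.52, SE 0.54, edgeR adjusted p = 5.78e-08). Fabp1, an enterocyte and liver fatty-acid-binding protein, had 33.2 against 159 CPM in fl/fl and 0 against 48.1 CPM in +/fl. Mgp, a calcification inhibitor, had 52.2 against 192 CPM in fl/fl and 6.40 against 542 CPM in +/fl. Ifi27l2a, an interferon-stimulated gene, had 395 against 759 CPM in fl/fl and 147 against 1824 CPM in +/fl, and Gas1, Col3a1, Ube2c, Tagln, Gnat3, Mdk, Pclaf and Acta2 fell by 2.27 to 2.85 on the log2 scale, and by 1.25 to 2.06 in fl/fl alone. Of these 12 genes DESeq2 called Reg3b, Mgp, Fabp1, Tagln and Gnat3. With comparison cells limited to at least 3 Aire UMIs (1182 in fl/fl, 150 in +/fl), the calls of Ccl21a, Krt5, Mgp, Gas1, Tagln, Gnat3, Ifi27l2a and Acta2 were lost. Of the 120 genes that fell, 71 had 0 UMIs in the +/fl kallikrein cells.

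Markers of other cell types that a droplet could hold were summed in the same cells. The 7 T lineage markers summed to 34.3 against 29.4 CPM in kallikrein and comparison cells of fl/fl, and to 0 against 32.6 CPM in +/fl. The 4 B lineage markers summed to 46.5 against 39.7 CPM in fl/fl and to 32.0 against 22.9 CPM in +/fl. Neither lymphoid list was called in any member by edgeR (0 at an unadjusted p under 0.05) or by DESeq2. The 7 myeloid and dendritic markers summed to 1259 against 697 CPM in fl/fl and to 525 against 141 CPM in +/fl. Nearly all of that sum was Lyz2, a lysozyme (1224 against 665 CPM in fl/fl, 493 against 115 in +/fl; not called, edgeR adjusted p = 0.105), while Ptprc is at 0 by the rule. The part of myeloid RNA in the kallikrein cells was not tested. The 11 tuft markers summed to 188 against 282 CPM in fl/fl and to 499 against 694 CPM in +/fl, and the 4 fibroblast markers to 57.4 against 91.3 CPM in fl/fl and to 64.0 against 412 CPM in +/fl. Depth moved with the populations, since kallikrein cells had the higher median UMIs in fl/fl and the lower in +/fl. At 5000 UMIs per cell, kallikrein cells showed a median of 2072 genes in fl/fl (595 cells) and 2110 in +/fl (14 cells), against 1983 and 1960 in comparison cells of fl/fl and +/fl.

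Several genes that rose had their highest level in the Klk1-led cells. This grouping uses genes of the rule, was made after the values were seen and carries no test. The +/fl sum that entered the fit came from 17 cells, 13 of them led by Klk1, so the fit itself chose genes that are high in such cells. Of the 188 genes that rose outside the Klk1 family, 126 (67.0%) had their highest level among the 6 groups of fl/fl cells in the 240 Klk1-led cells, against 27.3% of all 15952 tested genes outside the family. Car8 had 786 CPM in Klk1-led fl/fl cells, where 55.0% of cells held it, and 8.40 to 162 CPM in the other 5 groups. Cd177 had 209 CPM in Klk1-led cells and at most 23.4 CPM in the others, and Speer4c 359 CPM and at most 66.4 CPM. Chga had 270 CPM in Klk1-led cells (45.0% of cells), 171 CPM in Klk1b9-led cells, and 21.9 CPM in Klk1b11-led cells. In +/fl, Car8 was found in 8 of the 13 Klk1-led cells (1941 CPM) and in 0 of the 4 others. Snap25 and Chga were each found in 6 of the 13 and in 0 of the 4. These 4 cells held 1003, 1944, 5747 and 7952 UMIs, against a median of 11836 UMIs in the 13. The part of depth in these zeros was not tested. Across the 698 fl/fl cells Klk1 ran with Car8 (Spearman rho 0.42), Car8 with Cd177 (0.47), and Aire against Car8 (-0.26). The median depth was 9560 UMIs in Klk1-led cells, against 12133 to 14055 UMIs in the other groups.

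Cells led by the other paralogs had the highest levels of some other genes. Klk1b9-led fl/fl cells had the most Aire (458 CPM, 81.8% of cells) and H2-Aa (7585 CPM), against 282 CPM (56.7% of cells) and 3850 CPM in Klk1-led cells. Klk1b16-led cells had the most Krtdap, a keratinocyte differentiation gene (718 CPM), and Gp2, the bacterial receptor of microfold cells (327 CPM), against 18.4 to 414 CPM and 14.7 to 58.2 CPM in the other groups. Klk1b26-led cells had the most Krt10, a keratin of differentiated epidermis (359 CPM), and Klk1b11-led cells the most Krt5 (610 CPM). Krtdap was found in 12.1 to 20.0% of the cells of each group, Gp2 in 10.2 to 23.3% and Krt10 in 22.9 to 34.7%. The levels of these genes thus rest on a minority of cells. Krt10 was found in 25.5% of Klk1b26-led cells and in 34.7% of Klk1b11-led cells, and Krt5 in 55.1% of Klk1b11-led cells. Fabp9 was highest in cells with no leader (732 CPM) and in Klk1b16-led cells (622 CPM), and lowest in Klk1-led cells (136 CPM).

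**Figure D5:**
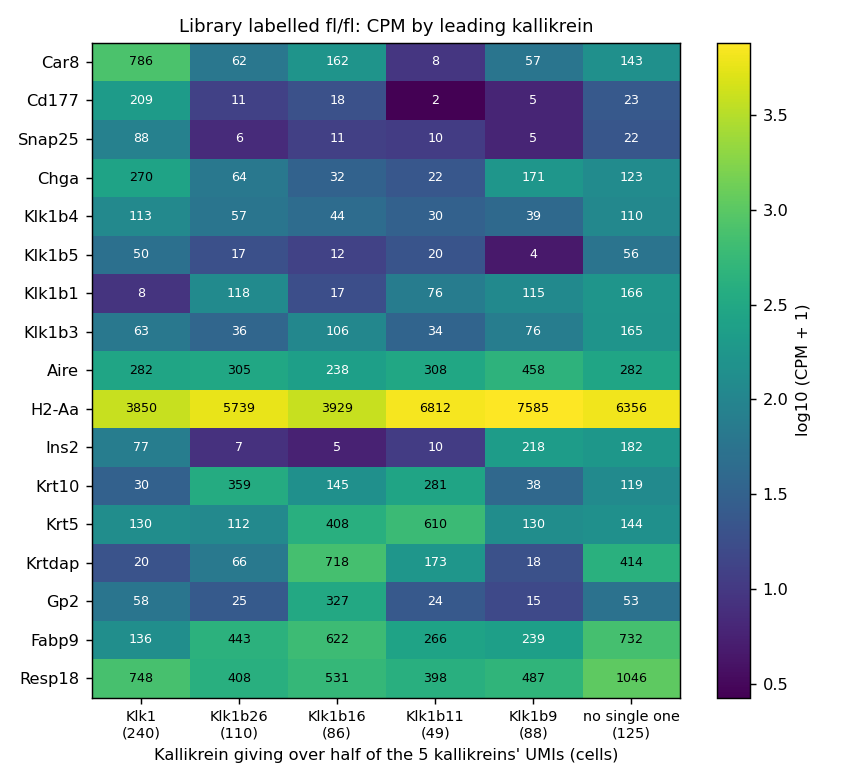
Level of 17 genes (number in each field, CPM; colour, log10 of CPM plus 1) in fl/fl kallikrein cells grouped by the paralog that gave more than 50% of the 5 kallikreins' UMIs, with the number of cells under each group. Car8 stands at 786 CPM in the 240 Klk1-led cells and at 8.40 to 162 CPM in the other groups, and Aire is highest in Klk1b9-led cells at 458 CPM.

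Aire was lower and Resp18 higher in the fl/fl cells with the most kallikrein, as a description. From the lowest bin (3 to 5 per 10000, 108 cells) over 5 to 10 (166 cells), 10 to 30 (235 cells) and 30 to 100 (137 cells) to 100 or more (52 cells), Aire stood at 297, 355, 355, 241 and 102 CPM. The share of cells with an Aire UMI was 77.8, 78.3, 64.7, 59.1 and 44.2% in the same order, at median depths of 14345, 13034.5, 9843, 9281 and 13430 UMIs. Resp18 stood at 591, 473, 629, 886 and 1217 CPM, highest in the top bin, whereas Csn2 stood at 1067, 1113, 1014, 579 and 250 CPM.

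Within kallikrein cells the 2 libraries were compared without a test. Among 4204 genes with at least 50 UMIs over both and 50 CPM in either, 513 (12.2%) were at least 2-fold higher in fl/fl, among them 63 at 0 UMIs in +/fl that passed these limits through fl/fl and so had to be higher, and 636 (15.1%) at least 2-fold lower, with a median log2 ratio of -0.16. TMM scaling moved that median by 0.24 and gave 666 and 404. Comparison cells showed 306 of 3436 genes (8.91%) and 116 (3.38%). Since 13 of 17 +/fl but 240 of 698 fl/fl cells were led by Klk1, the mix of paralogs differs along with the genotype. Within Klk1-led cells alone, 489 of 4356 genes (11.2%) were at least 2-fold higher in fl/fl and 477 (10.95%) at least 2-fold lower.

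Compared genes of the Aire stage and antigen presentation stood mostly higher in fl/fl kallikrein cells, as a description. All 6 Aire stage genes compared were at least 2-fold higher in fl/fl (median log2 ratio 2.52, and 1.27 in comparison cells). Of 11 MHC class II pathway genes 6 were (median 1.12, and 0.998 in comparison cells), as were 8 of 11 NF-kB and TNF receptor genes (1.42, and 0.69). No member compared in these 3 lists was at 0 UMIs in +/fl. Members under 50 CPM in +/fl, among them Cd40, passed the limits through fl/fl, so their direction was fixed. Cd40, a receptor that drives mTEC maturation, had 104 CPM in fl/fl and 6.40 CPM in +/fl kallikrein cells, and Cd80, a costimulatory ligand, 49.0 CPM in fl/fl and 0 UMIs in +/fl. Fabp9 (392 CPM in fl/fl, 0 UMIs in +/fl) was at least 20.4-fold higher in fl/fl against a floor of 3 UMIs summed over all 17 cells, and by a log2 ratio of 3.63 in comparison cells. On the same floor Nts, the peptide neurotensin, was at least 9.97-fold, Camp, an antimicrobial peptide, at least 9.92-fold and Ptgds, a prostaglandin synthase, at least 9.83-fold higher, with log2 ratios of 4.12, 3.88 and 4.37 in comparison cells. Spink5, a protease inhibitor of skin kallikreins, was at least 17.2-fold higher, Chil4 at least 11.01-fold, Wfdc21 at least 8.86-fold and Cxcl3 at least 8.08-fold, with log2 ratios of 0.30 to 0.67 in comparison cells. Genes given on this floor passed the limits through fl/fl, so their direction was fixed, and the floor leaves out spread between cells. Finding 0 of 17 cells allows up to 19.5% of cells with a UMI. In fl/fl, Chil4 was found in 9.89% of kallikrein cells, Camp in 12.6% and Nts in 16.6%, against 25.6% for Spink5, 26.5% for Ptgds and 32.5% for Fabp9.

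Endocrine granule genes stood the other way. Of 7 compared, 4 were at least 2-fold lower in fl/fl than in +/fl kallikrein cells and 0 at least 2-fold higher (median log2 ratio -1.45, and 1.29 in comparison cells). Members under 50 CPM in fl/fl passed the limits through +/fl, so their direction was fixed. Scg2 was such a member (39.1 CPM in fl/fl, 109 CPM in +/fl), with 15 of its 17 +/fl UMIs in 1 cell. Chga had 147 CPM in fl/fl and 288 CPM in +/fl over all kallikrein cells, and 270 CPM in fl/fl and 322 CPM in +/fl within the Klk1-led cells. Resp18, of the same list, was higher in fl/fl, with 667 CPM in fl/fl and 397 CPM in +/fl over all kallikrein cells, and 748 CPM in fl/fl and 437 CPM in +/fl within the Klk1-led cells. The part of the paralog mix in the differences between the libraries was not tested. Below Xist, the lowest ratios belonged to Crybb1, a lens crystallin (28.7 CPM in fl/fl, 448 CPM in +/fl, where 63 of 70 UMIs came from 1 cell), Atp4a, the gastric proton pump (19.9 and 269 CPM), the proteoglycan Vcan (14.1 and 186 CPM) and the semaphorin receptor Plxna4 (15.7 and 205 CPM, in 7 of 17 +/fl cells). The ligand Ihh was lower as well (5.13 CPM in fl/fl, and 70.4 CPM from 1 cell in +/fl), as were Adgrl3 (7.01 and 76.8 CPM) and Ugt2b34 (28.0 and 269 CPM, from 2 of 17 +/fl cells). Each of these genes below Xist stood under 50 CPM in fl/fl and passed the limits through +/fl, so its direction was fixed.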

How the data were processed

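Single-cell RNA-seq was measured in 2 libraries, 1 per genotype. The authors deposited filtered matrices of whole-number UMI counts (31053 genes), which were used as they are; the matrix headers name software version 3.1.0, the submitters' processing notes name Cell Ranger and Seurat, and the genome build is not given in the sources used here. Files were mapped to samples by GEO's record and to genotypes by the labels.

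The kallikrein cells, gene lists, tests and named genes were chosen with earlier results of these data known. Named genes were the 12 highest and 12 lowest log2 fold changes past the threshold among genes outside the rule with a mean of 50 CPM or more over the 2 libraries in either population, the 8 highest and 8 lowest library ratios, and the list members. UMIs were summed per library and population and tested with edgeR 4.0.16 in R 4.3.3 (filterByExpr, TMM, library as block, 1 common dispersion, adjusted p under 0.05). The common dispersion was chosen because a trended one made false calls on simulated data (65 among 222). On simulated sums the chosen fit recovered 69 of 100 genes changed 4-fold and 97 of 100 changed 8-fold. It made 2 false calls among 168 (16077 genes). These sums were drawn with the same 1 dispersion for every gene that the chosen fit assumes. They therefore cannot show which dispersion suits the real data, nor the rate of false calls there. The standard error was the log2 fold change divided by the square root of F. Shares have exact Clopper-Pearson and levels exact Poisson 95% intervals. Library ratios had 1 CPM added to both sides.

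Scrublet marked 0 and 1 cells in the fl/fl and +/fl libraries, under 0.5%, and so did not work; as an alternative the highest scores were removed at 0.8% per 1000 cells, which took 54 of 698 and 0 of 17 kallikrein cells. Python 3.11.15, numpy 2.4.6, scipy 1.17.1, pandas 2.3.3, scanpy 1.11.5 and DESeq2 1.42.0 were used.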

Additional observations from a re-analysis of the deposited data

How the results depend on the processing

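The ratio of the kallikrein cell shares, fl/fl over +/fl, stayed between 24.2 and 33.2 with a stricter threshold, a 10% mitochondrial limit, doublets removed or thinning. It was 7.61 among cells with an Aire UMI or a kallikrein call, and 12.9 among cells inside the Ptprc, Gpx6 and tuft limits. Without these limits it was 10.6 (added after the data were seen). Genes higher in kallikrein cells (201) numbered 52 with DESeq2, 323 with every gene of at least 10 UMIs, 67 with kallikrein cells limited to those with Aire (added) and 0 with edgeR without the library block (273 at an unadjusted p under 0.05). Genes lower (120) numbered 78 at the 10% mitochondrial limit, 209 with doublets removed, 211 with comparison cells freed of the limits, 6 with DESeq2, 262 with every gene of at least 10 UMIs, 33 with kallikrein cells limited to those with Aire and 0 without the block (393 at an unadjusted p). A dispersion trended on abundance (added) gave 200 and 140. Leaving out a library gives values with no test: without the +/fl library 43 of 51 named log2 fold changes moved by more than 1 standard error, and without the fl/fl library 44 did and 1, Klk1b21, had no difference; the log2 ratio of Klk1b21 was 2.66 without the +/fl library and 0 without the fl/fl library. Of 51 named genes with a call, 22 kept it with DESeq2, 32 with kallikrein cells limited to those with Aire, 36 with comparison cells of at least 3 Aire UMIs and 0 without the block. Library scaling in place of TMM moved the median log2 fold change of all genes by 0.11. Genes at least 2-fold higher in fl/fl kallikrein cells (513) numbered 259 at 100 UMIs and 100 CPM; those lower (636) numbered 261 there and 404 with TMM. No paired analysis was possible because each genotype has 1 library; the library block pairs the 2 populations of a library. The causes were not tested. The 17 +/fl cells limit every value of that library: 1 UMI is 6.40 CPM.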
